A study of Homo sapiens with 4 samples.

Results

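Keratins are the intermediate filament proteins of epithelial cells, and the genes described here are all those whose name on the array is KRT followed by a number, with or without a letter from A to C. This rule took 55 genes of 25992 gene names, read by 61 probes of 34127 and by 97 spots of 43118 that were not control spots. By their usual names 5 of the 55 were simple keratins, 3 were basal keratins, 17 belonged to stratified epithelia, 9 to the inner root sheath of the hair follicle, 17 to hair and nail, and 4 were grouped as other.

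Gene expression was measured with Agilent arrays of 1 colour in human proximal tubular cells (HPTCs) that received, after starvation from serum and supplements over 24 h, a stimulation of 24 h by IL-1β at 10 ng/mL together with the SGLT2 inhibitor empagliflozin (Empa) at 500 nM. There were 2 arrays labelled HK-2, a human proximal tubular line that carries papillomavirus E6 and E7 for immortalisation, and 2 arrays labelled RPTEC/TERT1, a line of the same origin made immortal by TERT, the catalytic telomerase subunit. They are called here by line and replicate number, so that HK-2 array 1 is replicate 1 of HK-2. All 4 arrays carried both agents, and controls without stimulation or with only IL-1β were not analysed here. No value below measures an effect of IL-1β or of Empa. HK-2 cells were grown in a keratinocyte serum-free medium and RPTEC/TERT1 cells in another medium, so line and medium cannot be told apart. The methods describe the arrays of a line as biological duplicates.

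A keratin filament is built from pairs of a type I (acidic) and a type II (basic) chain, so that cells express keratins of both types together. Simple epithelia such as renal tubules are known for KRT8 and KRT18, with KRT7 and KRT19 found mainly in the distal nephron and collecting duct of the healthy adult kidney. KRT5 and KRT14 form the filaments of basal cells in stratified epithelia, and the hair keratins harden hair and nail. Among the 55 genes, all 26 of type II have their probes on chromosome 12. Of the 29 of type I, 28 have theirs on chromosome 17, and KRT18 has its probes on chromosome 12 beside KRT8.

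A level is log2 of the processed signal over the array's 75th percentile, so that 0 is the 75th percentile and a step of 1 is a factor of 2. Levels below -5.37 were set to that floor. Probes bind with different strength, so a level is compared between arrays for 1 gene and not between genes. The 75th percentile lay between 393 and 748 units of signal, 59.2% to 64.9% of spots were well above background, and 56 to 217 spots were saturated on an array. No keratin spot was saturated on any array. Negative control spots differed between arrays, and the brightest of 153 lay at a level of -1.20 on HK-2 array 1 and between -5.14 and -3.31 on the other arrays.

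The arrays did not group by their labels. Across 17928 genes, HK-2 array 1 had a Pearson correlation of 0.980 with RPTEC/TERT1 array 2, and HK-2 array 2 had one of 0.976 with RPTEC/TERT1 array 1. Arrays of the same label correlated less, at 0.865 for HK-2 and 0.855 for RPTEC/TERT1. Replicate number 1 of both lines shares a scan date and replicate number 2 of both lines shares another, so the close arrays lie across the scan dates as well as across the labels. Why arrays of different labels were close was not tested. Whether the labels are right was not tested either, and HK-2 and RPTEC/TERT1 stand below for what the labels say, so that every direction between the lines rests on them. Levels are therefore given by array, and the differences of the keratins between the lines are also described between arrays 1 and between arrays 2.

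The sequences that carry the main signals are shown next, as printed on the array, in lower case throughout. The first set reads KRT8 and KRT18, which form one filament pair. It is shown because the probes of KRT8 did not move alike. Positions are those of GRCh37. Probes at the end of a transcript are shown by their first 30 bases of 60, and the others in full.
KRT8, probe at the 3′ end, chr12:53291026-53291085, first 30 bases: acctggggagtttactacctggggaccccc
KRT8, probe spread over an intron, chr12:53294461-53294995: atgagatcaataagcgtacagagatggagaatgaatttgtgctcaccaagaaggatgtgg
KRT8, probe of the non-coding transcript, chr12:53343241-53343300: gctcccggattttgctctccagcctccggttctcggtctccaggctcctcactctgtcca
KRT18, probe within 1 exon, chr12:53345577-53345636: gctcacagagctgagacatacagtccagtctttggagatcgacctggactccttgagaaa
KRT18, probe spread over an intron, chr12:53346116-53346554: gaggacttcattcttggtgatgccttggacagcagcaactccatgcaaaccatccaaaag
The non-coding KRT8 probe lies 48246 bases from the coding KRT8 probe before it and 2277 bases from the nearest KRT18 probe.

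The second set holds a probe of the hair keratin KRT83 that the array design also lists for another hair keratin, and the first 30 bases of the probes of KRT7, KRT19, KRT73 and KRT81, 4 of the keratins that lay above the brightest negative control on every array.
KRT83, probe listed for KRT83 and KRT86, chr12:52710677-52710736: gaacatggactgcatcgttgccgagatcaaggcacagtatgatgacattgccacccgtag
KRT7, chr12:52642590-52642649, first 30 bases: aagaagattcccacccctgcctcccatgcc
KRT19, chr17:39679918-39679977, first 30 bases: cttctgctgtcctttggagggtgtcttctg
KRT73, chr12:53001358-53001417, first 30 bases: acttgtccttgtttaggcctcacctccctg
KRT81, chr12:52679699-52679758, first 30 bases: ttcctgcctctccccttcctcctctgctct
Of the 61 keratin probes, 59 name a transcript that RefSeq (GRCh38.p14) lists, each under the symbol used here, and 3 are listed by the array design for transcripts of more than 1 gene.

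Of the 55 keratins, 15 (27.3%) were well above background on all 4 arrays, 11 on 1 to 3 arrays and 29 (52.7%) on none. Over all 25992 gene names these shares were 53% on all 4 arrays and 29.9% on none. On at least 1 array there were 26 keratins, beside 70.1% of all names. The simple keratins were measured most often, with 4 of 5 on all 4 arrays. The shares of the other classes on all 4 arrays were 1 of 3 for basal keratins, 3 of 17 for keratins of stratified epithelia, 1 of 9 for root sheath keratins, 5 of 17 for hair keratins and 1 of 4 for the others. The count depends on the threshold for background, since 24 keratins lay above the 95th percentile of the negative controls on all 4 arrays and 8 lay above the brightest negative control, both counted where at least 1 probe of the gene passed on each array. The 8 were KRT7, KRT8, KRT18, KRT19, KRT73, KRT80, KRT81 and KRT83. KRT83 was among them only through its probe listed for 4 hair keratins, and the mean of its 2 probes lay below that control on HK-2 array 1 and RPTEC/TERT1 array 1. Both filament types were among the detected keratins, with 6 of 29 type I genes and 9 of 26 type II genes on all 4 arrays. The single arrays differed little, with 18 to 21 of the 55 well above background.

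**Figure D1:**
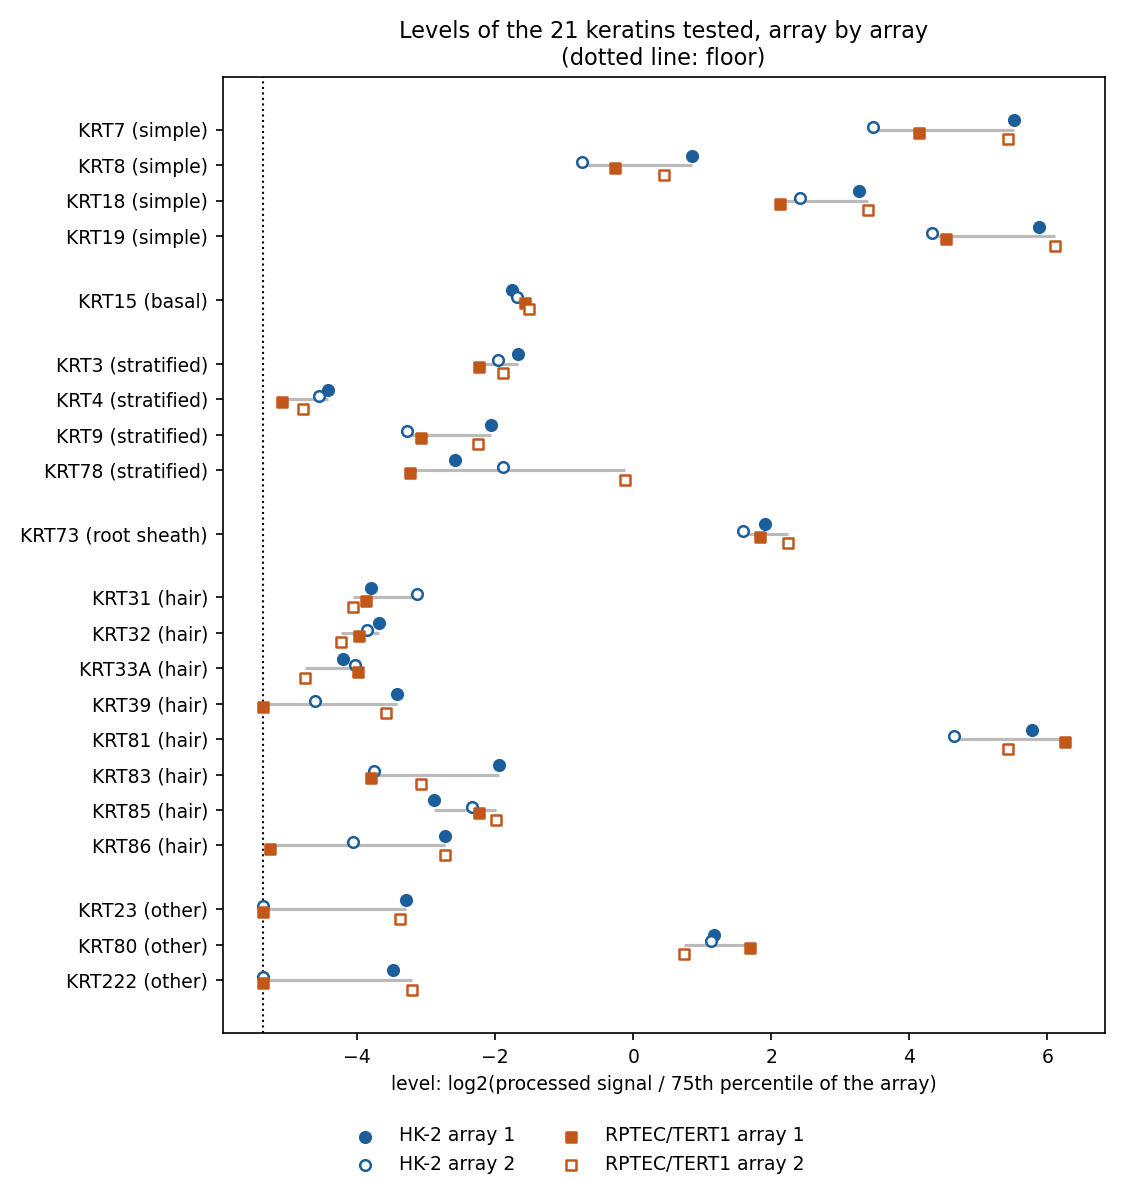
Levels of the 21 keratins well above background on at least 2 arrays, grouped by class, with 1 point for each array (circles HK-2, squares RPTEC/TERT1, filled array 1, open array 2, set apart vertically so that all can be seen), a grey line over their range and a dotted line at the floor of -5.37. KRT7, KRT8, KRT18 and KRT19 have their higher points on HK-2 array 1 and RPTEC/TERT1 array 2, KRT15 spans 0.25 over the 4 arrays, and levels of different genes cannot be compared.

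KRT7, KRT8, KRT18 and KRT19, the simple keratins with a signal, were all higher on HK-2 array 1 and RPTEC/TERT1 array 2 than on the other arrays. KRT7, a type II chain of ducts and glands, had a level of 5.52 on HK-2 array 1, 3.48 on HK-2 array 2, 4.14 on RPTEC/TERT1 array 1 and 5.44 on RPTEC/TERT1 array 2. KRT19, a type I chain that lacks most of the tail domain, had levels of 5.88 and 4.33 on the HK-2 arrays and of 4.53 and 6.11 on the RPTEC/TERT1 arrays, array 1 first here and in what follows. In both genes the ranges of the lines overlapped, and the lowest array was HK-2 array 2. KRT18, the type I partner of KRT8, had levels of 3.27 and 2.42 on HK-2 and of 2.12 and 3.40 on RPTEC/TERT1. KRT8, as the mean of its 3 probes, had levels of 0.85 and -0.74 on HK-2 and of -0.27 and 0.45 on RPTEC/TERT1. The lines overlapped in both of these genes too.

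Within the label HK-2, array 1 was higher than array 2 by 4.12-fold in KRT7, 3.0-fold in KRT8, 1.8-fold in KRT18 and 2.93-fold in KRT19. Within the label RPTEC/TERT1 the order of the arrays was the other way, and array 2 was higher than array 1 by 2.46-fold in KRT7, 1.64-fold in KRT8, 2.43-fold in KRT18 and 2.99-fold in KRT19. The difference between the lines therefore changed its sign with the replicate number. Among arrays 1 all 4 genes were higher in HK-2, by 2.17-fold to 2.61-fold. Among arrays 2 all 4 were higher in RPTEC/TERT1, by 1.98-fold to 3.88-fold. Both signs held under every way of scaling tried, but the difference among arrays 1 fell to a log2 value of 0.14 in KRT7, 0.12 in KRT18 and 0.22 in KRT19 after normexp correction of the mean signal, while KRT8 was at 0.83. KRT20, a simple keratin of gut and of the urothelial surface, was not well above background on any array.

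The probes of KRT8 and KRT18 were then read one by one. The 3′ probe of KRT8 had levels of 2.96 on HK-2 array 1, 1.53 on HK-2 array 2, 1.60 on RPTEC/TERT1 array 1 and 2.77 on RPTEC/TERT1 array 2. The KRT8 probe over an intron had levels of -1.48, -3.58, -2.08 and -2.57 on the same arrays. It thus placed RPTEC/TERT1 array 1 above RPTEC/TERT1 array 2, which the 3′ probe did not. The non-coding KRT8 probe, at 1.07, -0.17, -0.33 and 1.14, had its higher values on HK-2 array 1 and RPTEC/TERT1 array 2. Both probes of KRT18 also had theirs there. Their levels were 2.16, 1.26, 0.83 and 2.21 for the probe within 1 exon and 4.38, 3.58, 3.41 and 4.60 for the probe over an intron, in the same order of arrays. RefSeq lists 52 pseudogenes of KRT8, 68 of KRT18 and 5 of KRT19, and how much of these signals came from them was not tested. The non-coding KRT8 probe, which lies nearer to the KRT18 probes than to the other KRT8 probes, is part of the KRT8 mean. Which transcripts gave its signal was not tested.

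**Figure D2:**
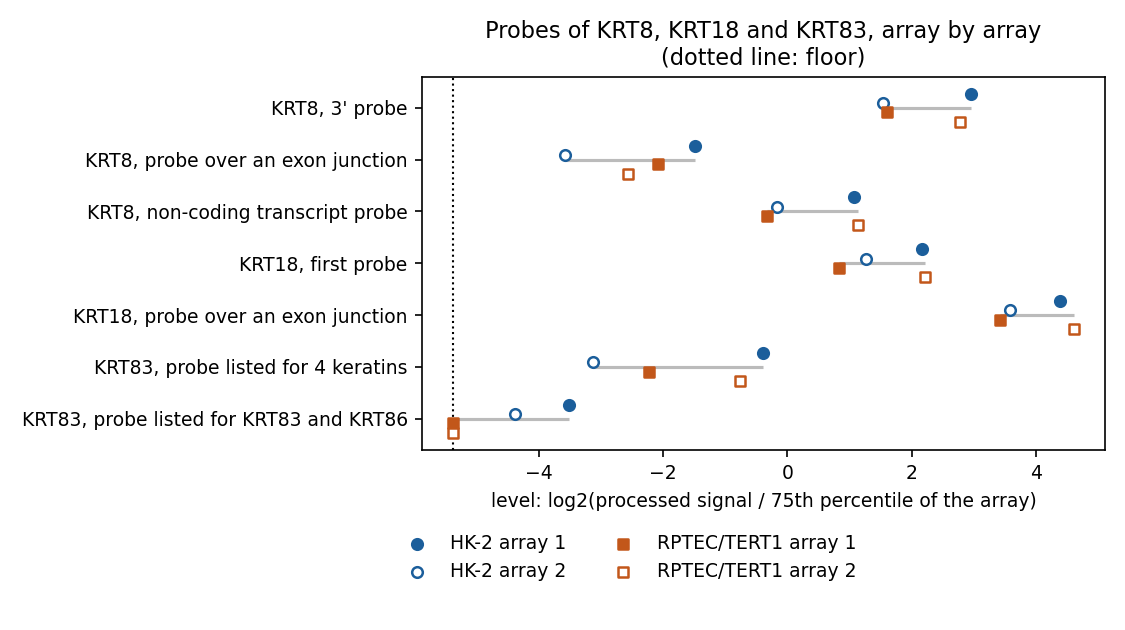
Levels of the single probes of KRT8, KRT18 and KRT83, with 1 point for each array, symbols as for the genes, the range in grey and the floor of -5.37 dotted. The KRT8 probe over an intron (exon junction in the plot) has RPTEC/TERT1 array 1 at -2.08 above array 2 at -2.57, against the other probes of KRT8, and 1 KRT83 probe is at the floor on both RPTEC/TERT1 arrays.

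Of the basal keratins only KRT15 was well above background, on all 4 arrays. KRT15, a type I chain of basal and progenitor cells, was the keratin that varied least among those measured on all 4 arrays, with levels of -1.76 and -1.68 on HK-2 and of -1.57 and -1.50 on RPTEC/TERT1. Its 4 arrays lay within 0.25 and the lines did not overlap, with RPTEC/TERT1 higher. Its level on HK-2 array 1 lay below the brightest negative control of that array. Its direction was the opposite after normexp correction of the mean signal and in the log2 values that were deposited. KRT5 and KRT14, the filament pair of basal cells, were not well above background on any array and lay at the floor on all 4. KRT17, a type I chain that injured and growing epithelia make, was likewise at the floor on all 4 arrays.

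Among the keratins of stratified epithelia, KRT3, KRT9 and KRT78 were well above background on all 4 arrays. KRT3, a type II chain of the cornea, had levels of -1.67 and -1.95 on HK-2 and of -2.23 and -1.89 on RPTEC/TERT1, a range of 0.56 in which the lines overlapped. KRT9, a type I chain of palm and sole skin, had levels of -2.05 and -3.28 on HK-2 and of -3.08 and -2.25 on RPTEC/TERT1. Its higher arrays were the same as those of the simple keratins. Both KRT3 and KRT9 lay below the brightest negative control on HK-2 array 1.

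KRT78, a type II chain, had the largest range over the arrays of the 21 keratins tested, at 3.12. Its levels were -2.58 and -1.89 on HK-2 and -3.24 and -0.12 on RPTEC/TERT1. The level on HK-2 array 1 lay below the brightest negative control of that array. RPTEC/TERT1 array 2 stood alone in this gene, and without it the difference between the lines turned from -0.56 to 1.00. KRT4, a type II chain of mucosal epithelia that was named after its values were seen, was well above background on both HK-2 arrays, at -4.42 and -4.55, and on neither RPTEC/TERT1 array, where it was at -5.09 and -4.78. By these levels its mean in HK-2 was 1.36-fold higher, with an adjusted p of 1 in limma, and this fold is not a lower bound. Its levels lay below the brightest negative control on every array except RPTEC/TERT1 array 2. Among arrays 2 its difference of HK-2 minus RPTEC/TERT1 turned to -0.34 with normexp, and to -0.34 also in the log2 table that was deposited. The remaining stratified keratins with a signal were KRT1, on 1 array, and KRT10, whose spot was marked as an outlier on 3 arrays.

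Of the root sheath keratins, KRT73 stood out by its signal, since 6 of the 9 were not well above background on any array. KRT73, a type II chain of the inner root sheath, had levels of 1.91 and 1.59 on HK-2 and of 1.83 and 2.25 on RPTEC/TERT1. The range over the arrays was 0.66, the lines overlapped, and arrays 1 of the lines differed by 0.08. Among arrays 1 the difference of HK-2 minus RPTEC/TERT1 turned to -0.81 with normexp and to -0.18 in the log2 table that was deposited. The only probe of KRT73 is listed by the array design for KRT73 alone. KRT26 and KRT74 were each well above background on 1 array only.

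Of the 17 hair keratins, KRT31, KRT32, KRT81, KRT83 and KRT85 were well above background on all 4 arrays. KRT81, a type II chain of the hair cortex, had levels of 5.78 and 4.65 on HK-2 and of 6.25 and 5.42 on RPTEC/TERT1. Its order differed from that of the simple keratins, since RPTEC/TERT1 array 1 was its highest array and HK-2 array 2 its lowest, and these arrays otherwise lay close together. In KRT81 they were 1.61 apart. RPTEC/TERT1 was higher than HK-2 within both replicate numbers, by 0.47 among arrays 1 and 0.78 among arrays 2, while array 1 was higher than array 2 within both labels. Both of these differences between the lines kept their sign under every way of scaling tried. The array design lists the probe of KRT81 for no other keratin, but also for a non-coding transcript named after KRT81.

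KRT83, a further type II hair chain, had levels of -1.95 and -3.76 on HK-2 and of -3.80 and -3.07 on RPTEC/TERT1 as the mean of its 2 probes, which disagreed. The probe listed for 4 hair keratins, KRT81, KRT83, KRT85 and KRT86, had levels of -0.39, -3.13, -2.23 and -0.77 on HK-2 arrays 1 and 2 and RPTEC/TERT1 arrays 1 and 2. The probe listed for KRT83 and KRT86 had levels of -3.51 and -4.38 on HK-2 and was at the floor on both RPTEC/TERT1 arrays. The first probe placed RPTEC/TERT1 array 2 above HK-2 array 2 and the second did the reverse. Which of the listed genes gave the signal was not tested.

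KRT86, also a type II hair chain, had levels of -2.73 and -4.07 on HK-2 and of -5.27 and -2.73 on RPTEC/TERT1, and was not well above background on RPTEC/TERT1 array 1. KRT85 had levels of -2.89 and -2.33 on HK-2 and of -2.23 and -1.98 on RPTEC/TERT1, and the lines did not overlap. RPTEC/TERT1 was higher in KRT85 here, but lower after normexp correction and in the log2 values that were deposited. KRT85 lay below the brightest negative control on HK-2 array 1. KRT31 and KRT32, type I hair chains, were both dim. KRT31 had levels of -3.81 and -3.13 on HK-2 and of -3.87 and -4.06 on RPTEC/TERT1. KRT32 had levels of -3.68 and -3.85 on HK-2 and of -3.98 and -4.24 on RPTEC/TERT1. In both of these genes HK-2 was higher on every array by these levels, with gaps between the nearest arrays of the lines of 0.06 and 0.12. Both lay below the brightest negative control on HK-2 array 1 and on RPTEC/TERT1 array 1. Among arrays 2 the difference of HK-2 minus RPTEC/TERT1 turned to -0.26 in KRT32 with normexp. It also turned in the log2 table that was deposited, to -0.22 in KRT32 and -0.09 in KRT31.

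KRT80, a type II chain found in many epithelia, had levels of 1.17 and 1.13 on HK-2 and of 1.69 and 0.73 on RPTEC/TERT1. The HK-2 arrays differed by 0.04 and the RPTEC/TERT1 arrays by 0.96, with HK-2 between them. KRT23, a type I chain, had levels of -3.29 on HK-2 array 1 and -3.38 on RPTEC/TERT1 array 2 and was at the floor on the other arrays. KRT222, a type I related gene, had the same pattern, with levels of -3.49 and -3.21 on the same arrays and the floor on the others. Both were well above background on the arrays with a value above the floor and on no other. On HK-2 array 1 both lay below the brightest negative control. The values of KRT23 are from a single probe, and another KRT23 probe was at the floor on every array and was not used.

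Whether the lines differed was tested with limma over 16473 genes, each well above background on 2 arrays or more, which included 21 keratins. No gene of the 16473 passed an adjusted p of 0.05 (0% called), and 23 genes (0.14%) had an unadjusted p below 0.05. None of the 21 keratins was among either. The adjusted p was 1 for all 21, and their unadjusted p lay between 0.336 and 0.999. The differences of HK-2 minus RPTEC/TERT1 ran from -0.62 in KRT81 to 0.60 in KRT86, with a median of 0.00 beside 0.02 over all genes tested. Their standard errors ran from 0.42 to 1.17, so that no difference was over 1.08 of its standard errors. Each label held 1 array of each close pair, so differences between the pairs entered the spread within the labels and enlarged the standard errors. This left the test little power for any gene. A miss of the threshold with 2 arrays on each side does not show that the lines were alike in these genes.

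**Figure D3:**
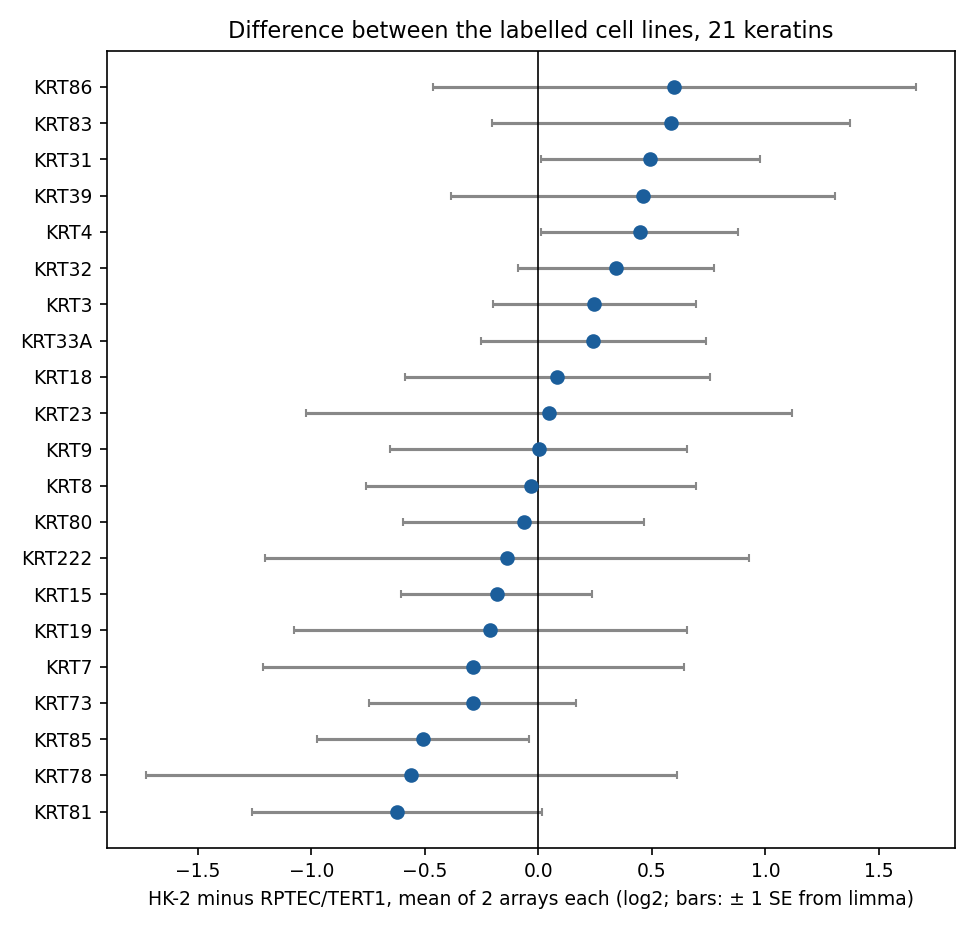
Difference of HK-2 minus RPTEC/TERT1 in mean level (2 arrays each) for the 21 keratins tested, ordered by size, with bars of 1 standard error from limma. The points lie between -0.62 and 0.60, and the standard errors between 0.42 and 1.17.

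The lines did not overlap in 5 of the 21 keratins. HK-2 was higher in 3, KRT4, KRT31 and KRT32, beside 4.36% of all genes tested. The filter for testing took KRT4 only through the HK-2 arrays, where it was higher, so its place in this count is no support for its direction. RPTEC/TERT1 was higher in 2, KRT15 and KRT85, beside 2.81% of all genes tested. None of the simple keratins was among the 5. The differences in the 5 genes ran from -0.51 in KRT85 to 0.49 in KRT31, and each had an adjusted p of 1 in limma.

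Within the replicate numbers, differences over 1 were frequent and ran in opposite directions. Among arrays 1, HK-2 was higher by over 1 in 10 of the 21 keratins, where 19.6% of all genes tested were, and lower by over 1 in none, where 16.4% were. The 10 were KRT7, KRT8, KRT9, KRT18, KRT19, KRT23, KRT39, KRT83, KRT86 and KRT222. On HK-2 array 1, KRT9, KRT23, KRT39, KRT83, KRT86 and KRT222 lay below the brightest negative control, KRT83 as the mean of its probes. KRT23, KRT39 and KRT222 were at the floor on RPTEC/TERT1 array 1, so the floor set the size of their differences. Among arrays 2, HK-2 was lower by over 1 in 9 keratins, beside 17.8% of all genes tested, and higher in none, beside 15.9%. Of these 9, KRT7, KRT8, KRT9, KRT19, KRT23, KRT39, KRT86 and KRT222 were also among the 10, and KRT78 was not. KRT23 and KRT222 were also at the floor on HK-2 array 2. The filter for testing took both only through the arrays where they were high, so their place in these counts is no support. The median keratin difference was 0.67 among arrays 1 and -0.78 among arrays 2, with medians over all genes tested of 0.12 and -0.08. After normexp correction HK-2 was higher by over 1 in 14 keratins and lower in 2 among arrays 1, and lower in 6 among arrays 2. The deposited log2 values gave 11 higher among arrays 1 and 5 lower among arrays 2. No share of all genes tested is given for normexp or the deposited values, so these counts have no background beside them. The genes counted also changed. Among arrays 1, normexp took KRT4 from 0.67 to 2.57 and KRT31 from 0.06 to 2.27, but KRT7 from 1.385 to 0.14 and KRT19 from 1.35 to 0.22. Whether dim genes in general moved like KRT4 and KRT31 was not tested. With 1 array on each side the differences within the replicate numbers have no replicate check, and no test was made of them.

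**Figure D4:**
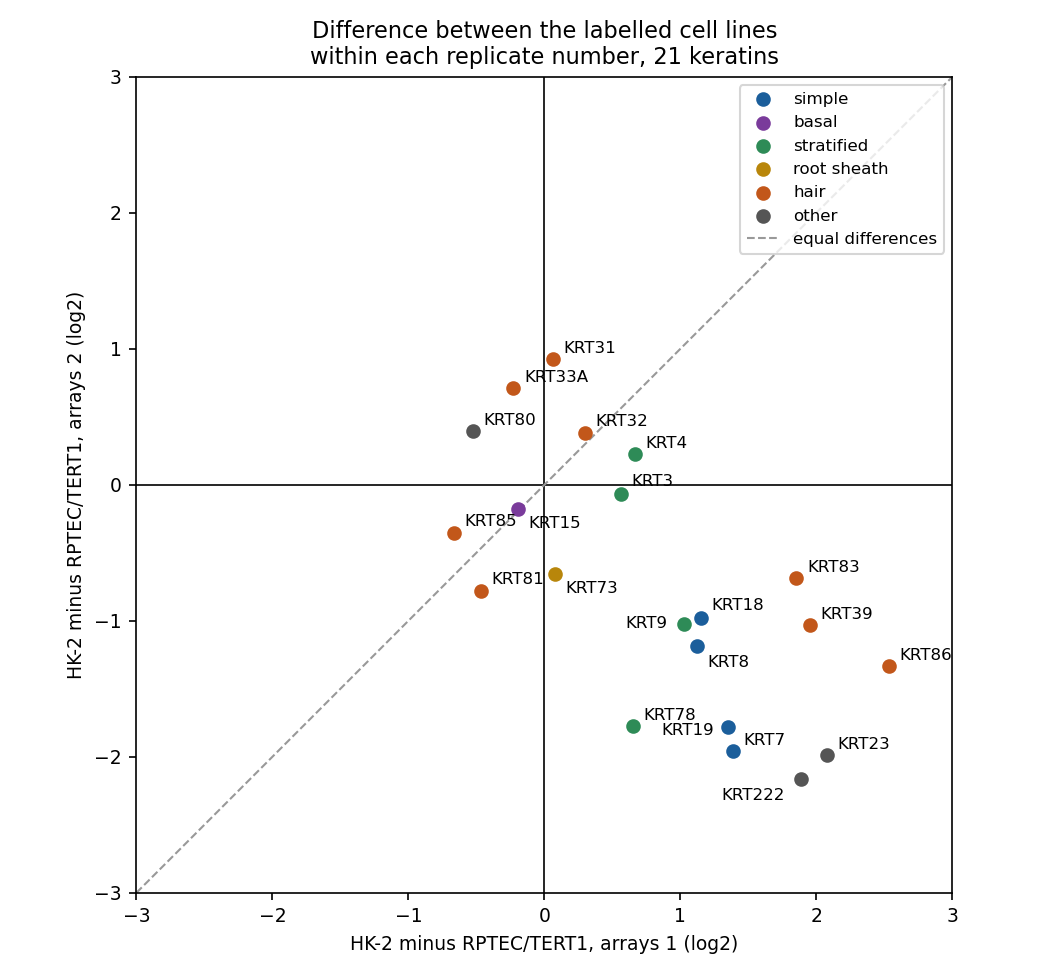
Difference of HK-2 minus RPTEC/TERT1 among arrays 1 (horizontal, log2) against the same among arrays 2 (vertical, log2) for the 21 keratins tested, coloured by class, with a dashed line where both would be equal. The 4 simple keratins lie at the lower right, from 1.12 to 1.39 on the horizontal axis and from -1.96 to -0.98 on the vertical axis, and KRT81, KRT15 and KRT85 lie below 0 on both.

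The same was seen within the labels. HK-2 array 1 was higher than HK-2 array 2 by over 1 in 10 keratins, beside 17.7% of all genes tested. These again included KRT9, KRT23, KRT39, KRT83, KRT86 and KRT222, which lay below the brightest negative control on HK-2 array 1. RPTEC/TERT1 array 1 was lower than RPTEC/TERT1 array 2 by over 1 in 8 keratins, beside 22.1% of all genes tested. KRT23 and KRT222 are in the counts of both labels, and the filter took them only through the arrays where they were high. In neither label did a keratin differ by over 1 in the other direction, beside 16.3% of all genes tested in HK-2 and 18.4% in RPTEC/TERT1. HK-2 array 1 and RPTEC/TERT1 array 2 differed by over 1 in 2 keratins, KRT83 and KRT78, beside 4.9% of all genes tested. HK-2 array 2 and RPTEC/TERT1 array 1 differed by over 1 in 3, KRT78, KRT81 and KRT86, beside 6.79%. KRT78 was thus the gene in which neither pair of close arrays was close. The median size of the keratin difference was 0.27 for the first pair and 0.28 for the second, and 0.67 to 0.93 for the other pairs of arrays.

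The proteins that work with keratins were read from 4 lists of 56 genes: desmosomes and the linkers that tie filaments to them (19 genes), other intermediate filament proteins (13), transcription factors known to act on keratin genes (14) and the cornified envelope (10). Of the 56 genes, 40 were tested and none passed the threshold in limma or had an unadjusted p below 0.05, beside 0% and 0.14% of all genes tested. Their median difference of HK-2 minus RPTEC/TERT1 was 0.01 beside 0.02 over all genes tested. Among arrays 1, 14 of the 40 were higher in HK-2 by over 1 and 13 were lower, beside 19.6% and 16.4% of all genes tested. Among arrays 2, 13 were higher and 12 lower, beside 15.9% and 17.8%. Like all genes tested, these genes thus held differences over 1 in both directions within each replicate number. Some of those counted, such as PPL, EHF, SPRR2A, NEFH and TGM1, passed the filter for testing only through the arrays where they were high.

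Among the desmosome and linker genes tested, DSP, JUP and PPL had the widest ranges and the array order of the simple keratins. DSP, desmoplakin, which anchors keratin filaments to desmosomes, had levels of 0.73 and -3.28 on HK-2 and of -2.45 and 0.52 on RPTEC/TERT1. JUP, plakoglobin, had levels of 3.91 and 1.63 on HK-2 and of 1.92 and 3.75 on RPTEC/TERT1. PPL, periplakin, was at -2.54 on HK-2 array 1 and -2.62 on RPTEC/TERT1 array 2 and at the floor on the others. EVPL, envoplakin, which joins periplakin, varied less, with levels between 0.46 and 1.00. PKP3, plakophilin 3, had the reverse order, at -4.45 and -3.17 on HK-2 and -3.14 and -4.37 on RPTEC/TERT1. DSG3 and DSG1, desmogleins of stratified epithelia, were not tested, and each was well above background on 1 array. DSG3 was at -1.77 on HK-2 array 1 and at the floor on the others, and DSG1 was highest on RPTEC/TERT1 array 1, at -3.74. PKP3, DSG1 and DSG3 were named after their values were seen. PKP1, DSG4, DSC1 and DSC3 were not well above background on any array.

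All 13 other intermediate filament genes were tested. VIM, vimentin, the filament protein of mesenchymal and cultured cells, had levels of 6.43 and 6.32 on HK-2 and of 5.44 and 7.23 on RPTEC/TERT1, which overlapped. LMNA, the A-type lamin of the nuclear envelope, had levels of 2.47 and 1.27 on HK-2 and of 1.41 and 2.61 on RPTEC/TERT1, in the order of the simple keratins. NEFH and LMNB1 had the reverse order. NEFH, the heavy neurofilament chain, was at 1.16 on HK-2 array 2 and 0.82 on RPTEC/TERT1 array 1 and at the floor on the other arrays. LMNB1, a B-type lamin, had levels of -2.30 and 2.23 on HK-2 and of 1.51 and -1.82 on RPTEC/TERT1.

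Of the 14 transcription factors, TP63, the master regulator of basal epithelial cells, and OVOL1 were not well above background on any array, as was the case for KRT5 and KRT14. ELF3, an epithelial ETS factor, had levels of 2.64 and 0.95 on HK-2 and of 1.00 and 2.65 on RPTEC/TERT1. KLF5, a Krüppel-like factor of proliferating epithelia, had levels of 0.02 and -2.60 on HK-2 and of -2.78 and -0.19 on RPTEC/TERT1. EHF, another epithelial ETS factor, was at -2.07 on HK-2 array 1 and -2.24 on RPTEC/TERT1 array 2 and at the floor on the others. These 3 factors had the array order of the simple keratins.

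Of the 10 cornified envelope genes, IVL, LOR, FLG and SPRR1B were not well above background on any array. SPRR1A, a small proline-rich protein that stressed epithelia also make, had levels of 1.87 and 1.05 on HK-2 and of 0.71 and 2.24 on RPTEC/TERT1. SPRR2A was at -2.36 on HK-2 array 1 and -3.20 on RPTEC/TERT1 array 2 and at the floor on the others. TGM1, the transglutaminase that links the envelope, was at -4.05 on HK-2 array 2 and -3.27 on RPTEC/TERT1 array 1 and at the floor on the others. CNFN, cornifelin, stayed between -0.62 and -0.28 on the 4 arrays.

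**Figure D5:**
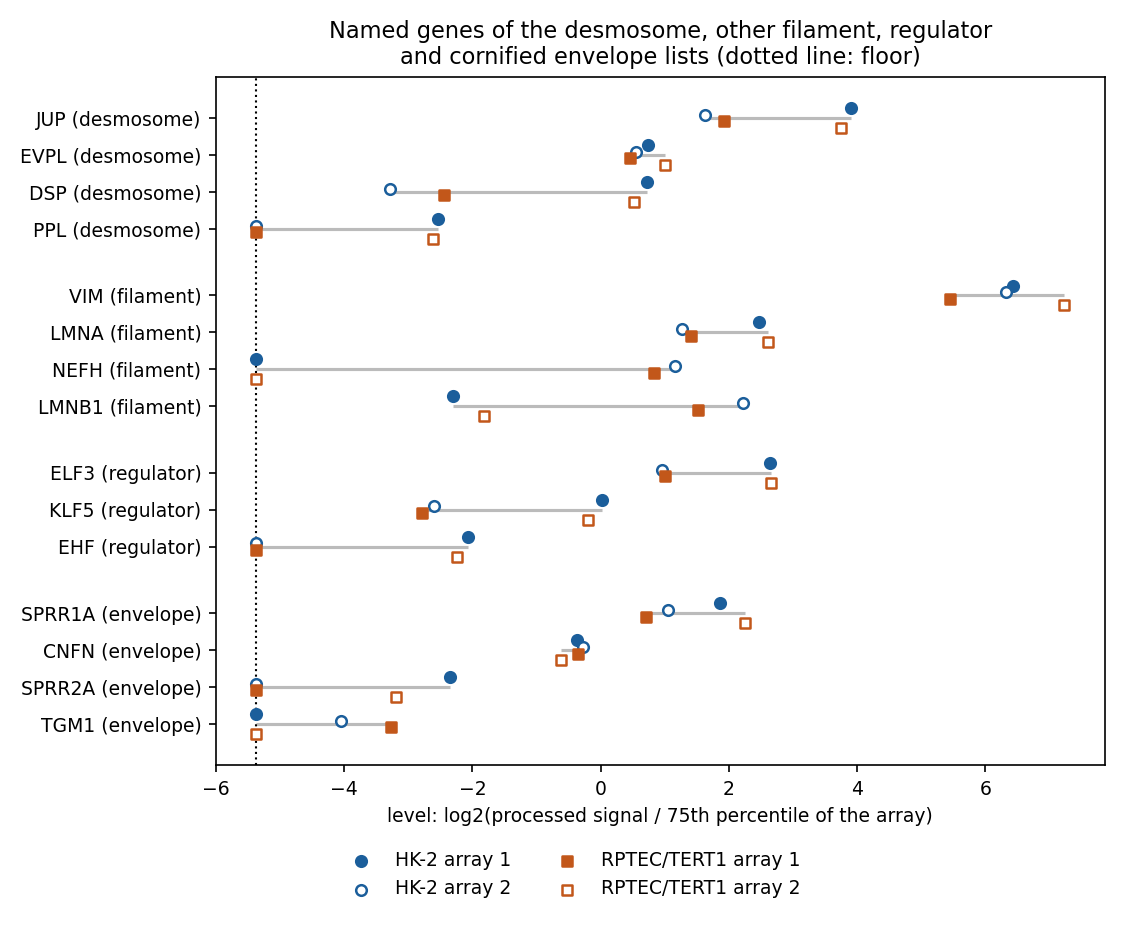
Levels of the named genes of the 4 lists (desmosome and linkers, other filament proteins, regulators, cornified envelope), with 1 point for each array, symbols as for the keratins, the range in grey and the floor of -5.37 dotted. DSP, JUP, PPL, LMNA, ELF3, KLF5, EHF, SPRR1A and SPRR2A have their higher points on HK-2 array 1 and RPTEC/TERT1 array 2, and NEFH, LMNB1 and TGM1 on the other arrays.

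Markers of cell types moved with these patterns, and their part in the results was not tested. Of 14 proximal tubule markers 6 were well above background on all 4 arrays and CUBN, SLC5A1, SLC22A6 and HNF4A on none. Their summed signal, in units of the 75th percentile, was 10.1 and 3.73 on HK-2 and 3.88 and 8.95 on RPTEC/TERT1, in the order of the simple keratins. DPP4, a peptidase that many epithelia express, made up most of this sum, with levels of 2.79 and 1.16 on HK-2 and of 1.31 and 2.45 on RPTEC/TERT1. Not all markers had that order. LRP2, megalin, had levels of -3.34 and -1.72 on HK-2 and of -2.77 and -3.06 on RPTEC/TERT1, with GGT1 and MME likewise lower on HK-2 array 1 and RPTEC/TERT1 array 2 than on the others. DPP4, LRP2, GGT1 and MME were named after their values were seen. ANPEP, aminopeptidase N of the brush border, was at 0.49 and 0.47 on HK-2 array 1 and RPTEC/TERT1 array 2 and at the floor on the others. The sum over 8 fibroblast markers had the reverse order, at 0.211 and 1.99 on HK-2 and 1.53 and 0.202 on RPTEC/TERT1, and DCN and LUM made up most of it where it was high. COL1A2, COL3A1, PDGFRA, PDGFRB and THY1 were not well above background on any array. In bulk samples such as these, fewer cells of a type and less RNA for each cell cannot be told apart.

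The loop, distal nephron and collecting duct are where KRT7 and KRT19 are usually found. Their markers summed to 1.01 and 0.744 on HK-2 and to 0.754 and 1.3 on RPTEC/TERT1. This sum held members of opposite order. SLC12A1 was at -0.51 on HK-2 array 1, -0.10 on RPTEC/TERT1 array 2 and the floor on the others. SCNN1A was at -4.84 and -1.22 on HK-2 and at -1.28 and -4.11 on RPTEC/TERT1. SLC12A1 and SCNN1A were named after their values were seen. SLC12A3, AQP2, AQP3, CALB1 and ATP6V1B1 were on no array. The 5 urothelial markers summed to between 0.188 and 0.296, with UPK1B, UPK2 and UPK3A on no array. The 6 endothelial markers summed to between 0.266 and 0.443, with VWF, KDR and TEK on no array. The 7 leukocyte markers summed to 1.08 and 1.72 on HK-2 and to 2.22 and 0.963 on RPTEC/TERT1. CD68, which many cell types express, made up most of that sum.

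Promoter sequence is a feature that the rule did not use. The promoter table used here (RefSeq, GRCh38.p14) held 38 promoters of 34 of the 55 genes, all 38 on the minus strand. KRT7, KRT15, KRT18, KRT19, KRT80 and KRT81 were among the 21 genes it did not hold. The motif TATAAA, on either strand in the 250 bases before the start, was in 21 of the 38 (55.3%), beside 10.7% of all 35116 promoters of the same length. GGGCGG, searched in the same way, was in 4 of the 38 (10.5%), beside 42.6% of all promoters. TGACTCA was in none of the 38, beside 4.2% of all. Promoters of one gene can overlap, and a match is a description only. Of the 15 promoters of keratins well above background on at least 1 array, 8 held TATAAA, those of KRT3, KRT10, KRT26, KRT31, KRT33A, KRT34, KRT39 and KRT73. KRT8 and KRT9 were among those whose window did not hold these letters. The last 80 bases before the start are shown, on the minus strand of GRCh38.p14, for the 3 genes of these 8 that were measured on all 4 arrays, with TATAAA in capitals.
KRT73, chr12:52618560-52618639: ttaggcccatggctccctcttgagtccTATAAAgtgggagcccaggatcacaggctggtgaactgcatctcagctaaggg
KRT31, chr17:41397609-41397688: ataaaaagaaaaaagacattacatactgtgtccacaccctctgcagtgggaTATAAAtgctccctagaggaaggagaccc
KRT3, chr12:52796118-52796197: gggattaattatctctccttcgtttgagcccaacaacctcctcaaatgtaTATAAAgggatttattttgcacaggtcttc
The first T of the motif lay 53 bases before the start in KRT73, 29 in KRT31 and 30 in KRT3.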

How the data were processed

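For each of the 4 arrays the authors deposited intensities of every spot from Feature Extraction 9.5.3.1 of Agilent, linear and with the background subtracted per the file headers, in 1 channel and not scaled between arrays. A second table by the authors holds log2 values for these spots, made in a way not given in the sources used here, and served as an alternative. The files hold no columns of other samples.

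Neither controls nor outlier spots were used. Signals were scaled to the array's 75th percentile, with a floor at 0.0242 of it (on each array the lowest scaled signal well above background was taken, and the floor is the highest of these), and converted to log2. Genes were means of their probes that passed background on 1 array or more, or else of all their probes. HK-2 and RPTEC/TERT1 were compared with limma 3.58.1 in R 4.3.3 (lmFit and eBayes, two-sided, no block) over genes that were well above background on 2 arrays or more, with Benjamini-Hochberg adjustment at 0.05. The step was tested on simulated data.

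The named genes are 11 keratins set by name, any other keratin well above background on all 4 arrays, the 3 keratins with the largest range among those tested, and from each list the 2 genes with the highest mean level and the 2 with the largest range. The members, classes, lists and tests were chosen with earlier results of these data known. Alternatives were normexp background correction with an offset of 50, quantile normalization, another set of probes for the percentile, the brightest probe of a gene, outlier spots kept, filters on dim genes, other thresholds for background, a replicate block and each array left out in turn. Replicates that share a number did not deviate together (correlation -0.784 over 17928 genes), so the numbers were not taken to pair the arrays. No 2 arrays share a slide. The number of arrays limits the precision. Probe positions are those of GRCh37 in the files, and RefSeq of GRCh38.p14 gave names and promoters. The labels name the RNeasy kit and the methods the innuPREP kit for RNA isolation. The sequence of 1 probe is not reported here.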

Additional observations from a re-analysis of the deposited data

Results flagged for a closer look

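KRT10, the type I chain of differentiating epidermis, had a signal outside the values used. Its only spot was marked as an outlier for uneven pixels on 3 of the 4 arrays, and only RPTEC/TERT1 array 1 gave a value that was kept, at 3.32. With the marked spots kept, KRT10 had a level of 4.59 on HK-2 array 1, 4.56 on HK-2 array 2 and 5.00 on RPTEC/TERT1 array 2, all far above the negative controls of these arrays. With these spots, 16 keratins in place of 15 were well above background on all 4 arrays. Whether the uneven pixels changed the signal was not tested.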

How the results depend on the processing

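No gene, keratin or partner gene passed the threshold in limma under any alternative, while the number of genes with an unadjusted p below 0.05 ran from 3 to 241. A replicate block left 0 genes called and 5 with an unadjusted p below 0.05. A block that pairs HK-2 array 1 with RPTEC/TERT1 array 2 and the other 2 arrays with each other, chosen after seeing the data, left 0 genes called and 183 with an unadjusted p below 0.05. The count of keratins well above background on all 4 arrays was 15. It was 24 above the 95th percentile of the negative controls and 8 above the highest negative control, and 15 to 17 with an array left out.

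The differences of HK-2 minus RPTEC/TERT1 were recomputed for 18 named keratins. Of 177 values under other settings 162 kept their direction and none passed the threshold. The 15 reversed values, whose cause was not tested, were as follows. In the deposited log2 values KRT15 was at 0.18, KRT85 at 0.19, KRT222 at 0.27, KRT8 at 0.0151 and KRT18 at -0.0482. After normexp correction KRT15 was at 0.42, KRT85 at 0.49, KRT222 at 0.67, KRT78 at 0.28 and KRT18 at -0.38. With the brightest probe KRT8 was at 0.0640, KRT18 at -0.0249 and KRT83 at -0.26. With quantile normalization KRT9 was at -0.0171 and KRT23 at -0.0018. With each array left out in turn, where the lone array is assumed to vary like the other label, the difference ran from -1.31 to 0.73 in KRT7, -0.83 to 0.76 in KRT8, -0.61 to 0.61 in KRT9, -0.56 to 0.73 in KRT18, -1.0 to 0.58 in KRT19, -0.95 to 1.09 in KRT23, -2.12 to 1.00 in KRT78, -0.54 to 0.41 in KRT80, -0.32 to 1.49 in KRT83, -0.67 to 1.87 in KRT86 and -1.22 to 0.81 in KRT222. No other named keratin reversed with an array left out. With 2 arrays for each label and 29 keratins not above background on any array, a difference in these could not be measured.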

Other observations

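Some keratins had a signal on a single array and belong to no comparison. KRT1 was well above background on RPTEC/TERT1 array 2 at a level of -3.87, KRT26 on HK-2 array 2 at -4.86, KRT34 on RPTEC/TERT1 array 1 at -4.91 and KRT74 on HK-2 array 2 at -5.24. Of these, KRT26, KRT34 and KRT74 lay below the brightest negative control of the array named. The KRT34 probe is also listed by the array design for another gene name. KRT75 reached -4.11 on HK-2 array 1, where it was not well above background, and lay at the floor on the other arrays.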
